A study of Mus musculus with 6 samples.

Results

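Extracellular ATP and adenosine act on T cells through surface receptors, and surface enzymes set how much of each is present. The genes described here are 10 listed receptors and enzymes of that system: the ATP-gated channels P2rx3, P2rx4 and P2rx7, the G protein-coupled receptors P2ry10, P2ry14 and Adora2a, and the enzymes Entpd1, Nt5e, Cd38 and Ada. They were chosen by name as receptors for ATP and adenosine and enzymes that degrade them, and where a gene had several probe sets the one with the highest mean over the 6 arrays stood for it. P2rx3 was listed because it is high in IL-12 primed cells, so its levels there are described without a test. A probe set with that single gene symbol was found for 8 of the 10 among 19938 named genes, and Adora2a and Cd38 were not analysed here.

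Expression was measured on Affymetrix arrays in 6 samples of splenic CD8+ T cells of female Pmel-1 mice on the C57BL/6 background, which carry a transgenic T cell receptor for the melanoma antigen gp100. The 2 IL-12 samples and the 2 IL-2 samples had been primed with gp100 for 4 days and stimulated with IL-12 or with IL-2 for 6 days. The 2 naive samples were collected fresh and sorted as CD8+ Thy1.1+ cells. All 3 groups share the strain, the transgene, the sex and the tissue, and no age and, for primed cells, no sort is named in the labels. Whether the samples within a group were taken from different animals or cultures is not stated either, so the spread behind the p-values may be technical alone. The series was made to find genes needed for activity against tumours by comparing the cytokines used for priming.

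ATP released by stressed or activated cells opens P2X channels, and P2Y receptors answer to nucleotides and related molecules through G proteins. CD39, the product of Entpd1, degrades ATP and ADP to AMP, and CD73, the product of Nt5e, turns AMP into adenosine, which restrains T cells largely through the receptor encoded by Adora2a. Adenosine deaminase, the product of Ada, converts adenosine to inosine, and CD38 consumes NAD.

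Values are log2 RMA values, and a difference is the mean of the first-named group minus that of the second, with the standard error (SE) of the limma fit on 2 arrays per group. A gene was called where its Benjamini-Hochberg adjusted p from limma, over 11147 tested genes, was under 0.05. A gene entered the test where at least 2 of 6 arrays exceeded 6.83, the 50th percentile of all values. All 8 measured genes entered it, but P2rx3 did so only through its IL-12 arrays. The number of arrays limits the precision. The 2 arrays of a group correlated across the tested genes, which are not independent replicates, at 0.992 for IL-12, 0.994 for IL-2 and 0.986 for naive cells. The CD8 T cell markers were high in every group, with Cd8a at 12.17 and 12.12 in IL-12, 12.26 and 12.36 in IL-2 and 12.61 and 12.66 in naive cells.

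Most B cell markers differed between all 3 groups, and most tested myeloid markers between naive and primed cells, which touches every comparison below. The linear values of 12 measured B cell markers of 13 summed to 2917 to 2955 per array in IL-12, 1379 to 1405 in IL-2 and 6517 to 6521 in naive cells. Those of 9 myeloid and dendritic markers summed to 1009 to 1026 in IL-12, 789 to 899 in IL-2 and 2738 to 3145 in naive cells. For 4 measured natural killer markers of 5 the sums were 147 to 160 in IL-12, 145 to 151 in IL-2 and 197 to 202 in naive cells. For 5 CD4 and regulatory T cell markers the sums were 1286 to 1441, 1808 to 1936 and 750 to 796, in the same order of groups. For 3 measured erythroid and platelet markers of 6 they were 263 to 298, 305 to 317 and 307 to 352. Of these last, 2 were tested, and neither was called in any comparison. Cd4 and Foxp3 did not follow the sum of their list, since Cd4 averaged 6.43 in IL-12, 6.25 in IL-2 and 6.59 in naive cells and Foxp3 7.17, 7.22 and 7.19. Zbtb7b and Ikzf2 of the same list did follow it, at 8.74, 9.08 and 7.21 and at 9.34, 10.05 and 8.41. Of the 3 tested markers of that list, limma called these 2 higher in both primed groups than in naive cells, and Foxp3 in no comparison. The 10 measured CD8 T cell markers of 11 summed to 44044 to 45082 in IL-12, 55473 to 56554 in IL-2 and 55673 to 59999 in naive cells. RMA values have no zero. The highest Y-linked gene in these female cells read between 4.677 and 5.002 per array, and the natural killer marker Klrb1c read 4.55 and 4.31 in IL-12, 4.79 and 4.73 in IL-2 and 5.38 and 5.30 in naive cells. The part of other cells in the results below was not tested, and in these bulk samples fewer cells of a type and less RNA per cell cannot be told apart.

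Of the P2X channels, P2rx3 and P2rx7 were high in IL-12 primed cells, whereas P2rx4 was lower in both primed groups than in naive cells. P2rx3 (probe set 10484488) encodes a channel best known from sensory neurons. It read 10.76 and 10.31 in IL-12 cells, 5.86 and 5.98 in IL-2 cells and 5.80 and 5.78 in naive cells. Both IL-12 arrays stood far above the other 4, which lay below the filter level and above the highest Y-linked gene. The difference was 4.61 ± 0.15 (SE, n = 2 arrays per group), or 24.5-fold, for IL-12 minus IL-2 and 4.74 ± 0.15, or 26.7-fold, for IL-12 minus naive. The difference between IL-2 and naive cells played no part in the choice of the gene. It was 0.13, given as a description because the arrays of both groups lay below the filter level. Equal expression is not read from it.

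P2rx3 had a second probe set, 10484486, with much smaller differences. It read 6.02 and 6.05 in IL-12 cells, 5.44 and 5.57 in IL-2 cells and 5.45 and 5.45 in naive cells. Both IL-12 arrays were again above the other 4, but IL-12 minus IL-2 was 0.53 and IL-12 minus naive 0.58, and all of its values lay below the filter level. With the mean of both probe sets as the value of the gene, the differences were 2.57 and 2.66. What parts of the transcript the probe sets cover was not given in the sources used here.

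**Figure D1:**
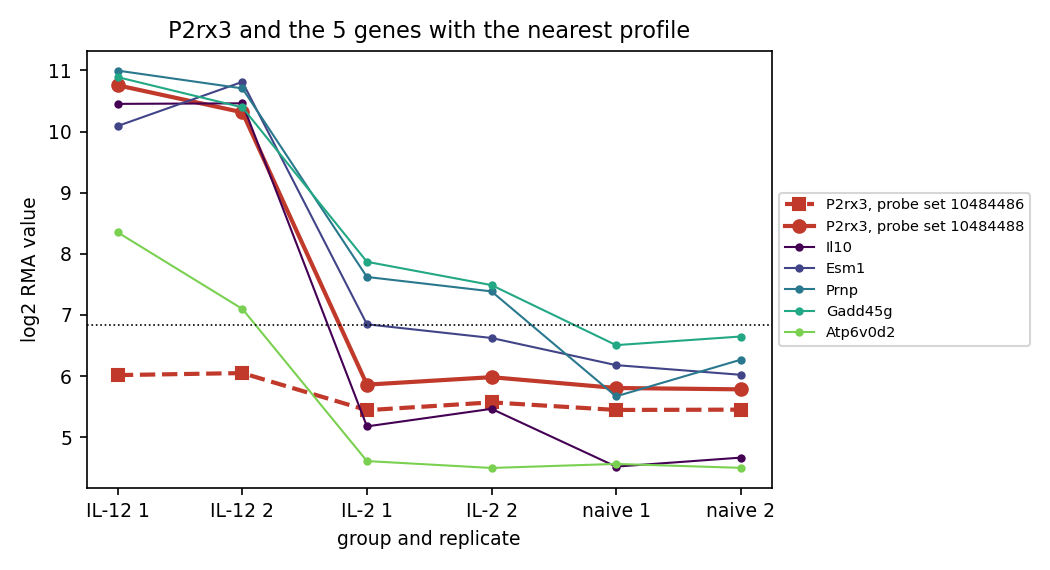
Log2 RMA values (vertical axis) of P2rx3 on each of the 6 arrays (horizontal axis, group and replicate). The thick solid line is the probe set used and the thick dashed line the second one. Thin lines are the 5 genes with the nearest profile, predicted genes and clone names left out. Lines join values of 1 probe set without implying an order, and the dotted line marks the filter level of 6.83. The used probe set read 10.76 and 10.31 in IL-12 cells and at most 5.98 elsewhere.

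With predicted genes and clone names left out, the 5 tested genes with the profile nearest that of P2rx3 were Il10, Esm1, Prnp, Gadd45g and Atp6v0d2. Nearness was the Euclidean distance between log2 values centred on each gene's mean over 6 arrays. It rests on the IL-12 values that chose P2rx3, and Il10 and Atp6v0d2 exceeded the filter level on the IL-12 arrays alone. The list is therefore a description. Distances ran from 1.18 for Il10, the gene of the cytokine interleukin 10, to 1.83 for Atp6v0d2, a subunit of the vacuolar proton pump. The centred profile of P2rx3 itself had a length of 5.41 on that scale. Il10 read 10.45 and 10.46 in IL-12 cells, 5.18 and 5.46 in IL-2 cells and 4.52 and 4.67 in naive cells. Its IL-2 arrays were above its naive arrays, and its IL-12 minus naive difference of 5.86 exceeded the 4.74 of P2rx3.

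P2rx7 (probe set 10525419) encodes a channel that opens at high ATP and, in mouse T cells, also after NAD-dependent ADP-ribosylation. It read 8.22 and 7.60 in IL-12 cells, 6.36 and 6.44 in IL-2 cells and 7.38 and 7.34 in naive cells. The 3 groups did not overlap, with IL-12 highest and IL-2 lowest, and the IL-12 arrays differed more from each other than those of the other groups. P2rx7 was 2.84-fold higher in IL-12 than in IL-2 cells (log2 difference 1.51 ± 0.18, limma adjusted p = 0.000735). It fell by 0.96 ± 0.18 in IL-2 against naive cells (limma adjusted p = 0.00251). The rise of 0.54 ± 0.18 in IL-12 against naive cells was close to the threshold (limma adjusted p = 0.0284). Without IL-12 replicate 1 it was 0.23, without naive replicate 1 0.56 and without naive replicate 2 0.52. The call was lost in each of these fits, which leave 1 array in a group. It was also lost with array weights (limma adjusted p = 0.0691). The B cell and myeloid marker sums also had IL-12 and naive cells above IL-2 cells.

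P2rx4 (probe set 10525439) encodes a channel that opens at lower ATP than P2rx7. It read 7.98 and 7.79 in IL-12 cells, 7.84 and 7.88 in IL-2 cells and 8.86 and 8.92 in naive cells. Both primed groups lay below the naive arrays and overlapped each other. P2rx4 was 2.01-fold lower in IL-12 than in naive cells (limma adjusted p = 7.09e-05) and 2.04-fold lower in IL-2 than in naive cells (limma adjusted p = 0.000101). IL-12 minus IL-2 was 0.02 ± 0.11, with a 95% interval of -0.22 to 0.27 (limma adjusted p = 0.902). The B cell and myeloid marker sums were likewise highest in naive cells. The other P2X genes P2rx1, P2rx2, P2rx5 and P2rx6 stayed below the filter level on all arrays and were not tested.

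P2rx7 and P2rx4 are adjacent protein-coding genes on chromosome 5 in the RefSeq gene table, and their order of groups differed, with P2rx7 highest in IL-12 cells and P2rx4 highest in naive cells. The 250 bases before their annotated starts are shown because these neighbouring genes had unlike patterns. Sequences are RefSeq's for GRCm38.p6, given 5′ to 3′ on the plus strand, P2rx7 at chr5:122643677-122643926 and P2rx4 at chr5:122707294-122707543. Windows were searched on both strands for TTCNNNGAA, the GAS element read by STAT factors, and TCACACC, a T-box core. They were also searched for TGANTCA, a loose pattern of the AP-1 element that takes any middle base, and matches are in capitals.
P2rx7: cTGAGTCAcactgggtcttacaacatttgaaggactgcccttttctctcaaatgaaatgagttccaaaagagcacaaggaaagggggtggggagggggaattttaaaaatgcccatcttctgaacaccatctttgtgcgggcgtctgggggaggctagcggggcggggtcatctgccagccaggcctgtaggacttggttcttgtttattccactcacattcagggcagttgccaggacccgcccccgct
P2rx4: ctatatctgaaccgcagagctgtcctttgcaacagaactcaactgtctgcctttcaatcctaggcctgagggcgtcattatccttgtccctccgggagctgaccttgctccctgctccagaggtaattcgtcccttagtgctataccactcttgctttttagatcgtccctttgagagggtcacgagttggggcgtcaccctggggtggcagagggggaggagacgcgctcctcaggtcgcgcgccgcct
The P2rx7 window held 1 AP-1 match, TGAGTCA, from 249 to 243 bases before the start, and the P2rx4 window held no match. A second annotated P2rx7 start had 1 T-box match in its window. Of 32851 promoter windows of this length, 7.02% held the GAS element, 3.33% the T-box core and 6.75% the loose AP-1 pattern. Windows were given for 8 of the 10 listed genes, 14 in all, and P2rx3 and Adora2a had none. Among the 14, 1 held a GAS match, 1 a T-box match and 4 a match to the loose AP-1 pattern. The matches of P2ry10 and of a further P2ry14 window read TGAATCA.

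Among the P2Y receptors, P2ry14 was higher in both primed groups than in naive cells and P2ry10 was lower in IL-12 than in IL-2 cells. P2ry14 (probe set 10498350) encodes a receptor for UDP-glucose and other UDP sugars. It read 9.01 and 9.26 in IL-12 cells, 8.64 and 8.89 in IL-2 cells and 6.78 and 6.99 in naive cells. The naive arrays lay far below all 4 primed arrays, and the IL-12 arrays were above the IL-2 arrays by a small margin. P2ry14 was 4.77-fold higher in IL-12 than in naive cells (log2 difference 2.25 ± 0.14, limma adjusted p = 2.24e-06). Its level in IL-2 cells was 3.68-fold that in naive cells (log2 difference 1.88 ± 0.14, limma adjusted p = 1.03e-05). IL-12 minus IL-2 was 0.37 ± 0.14 and did not pass (limma adjusted p = 0.0871, single-gene 95% interval 0.06 to 0.69).

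P2ry13 and P2ry12 lie near P2ry14 on chromosome 3 in the RefSeq gene table. P2ry13, a receptor for ADP, went the other way. It read 6.61 and 6.25 in IL-12 cells, 6.44 and 6.43 in IL-2 cells and 7.84 and 8.02 in naive cells. Its naive arrays were above all primed arrays, and its levels were 2.84-fold lower in IL-12 and 2.82-fold lower in IL-2 than in naive cells. It exceeded the filter level on the naive arrays alone, so these values are a description. The myeloid marker sum was also highest in naive cells. P2ry12 stayed below the filter level on all arrays. The window before the outermost P2ry14 start is shown because this receptor had the largest called difference of the listed genes other than P2rx3. It is the minus strand of chr3:59153493-59153742, with the AP-1 match TGACTCA from 202 to 196 bases before the start in capitals.
P2ry14: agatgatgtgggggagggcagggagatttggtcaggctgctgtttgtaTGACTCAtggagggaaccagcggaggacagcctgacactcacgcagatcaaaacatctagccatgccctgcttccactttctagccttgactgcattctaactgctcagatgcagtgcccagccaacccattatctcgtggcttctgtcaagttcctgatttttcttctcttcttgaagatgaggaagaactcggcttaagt

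P2ry10 (probe set 10601416) is named as a P2Y receptor but is known to answer to lysophosphatidylserine. It read 10.09 and 10.15 in IL-12 cells, 10.85 and 10.68 in IL-2 cells and 10.25 and 10.60 in naive cells. The IL-12 arrays were lowest and the IL-2 arrays highest, with naive arrays between them. P2ry10 was 1.56-fold lower in IL-12 than in IL-2 cells (log2 difference -0.64 ± 0.13, limma adjusted p = 0.0116). Leaving out any 1 of the 4 primed arrays gave differences from -0.72 to -0.56, and the call was lost each time. Such a fit leaves 1 array in a group. Neither primed group differed from naive cells past the threshold, with -0.30 ± 0.13 for IL-12 (limma adjusted p = 0.0836) and 0.34 ± 0.13 for IL-2 (limma adjusted p = 0.0679). IL-12 minus naive passed with quantile normalization (-0.39, limma adjusted p = 0.0369) and without naive replicate 1 (-0.48, 0.00985). IL-2 minus naive passed with median centring (0.44, limma adjusted p = 0.046) and without naive replicate 2 (0.51, 0.00745). The adjacent paralogue P2ry10b had means of 8.49 in IL-12, 8.70 in IL-2 and 8.84 in naive cells, and passed as lower in IL-12 against naive cells alone (limma adjusted p = 0.0355). How far the probe sets of both genes share sequence was not tested.

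**Figure D2:**
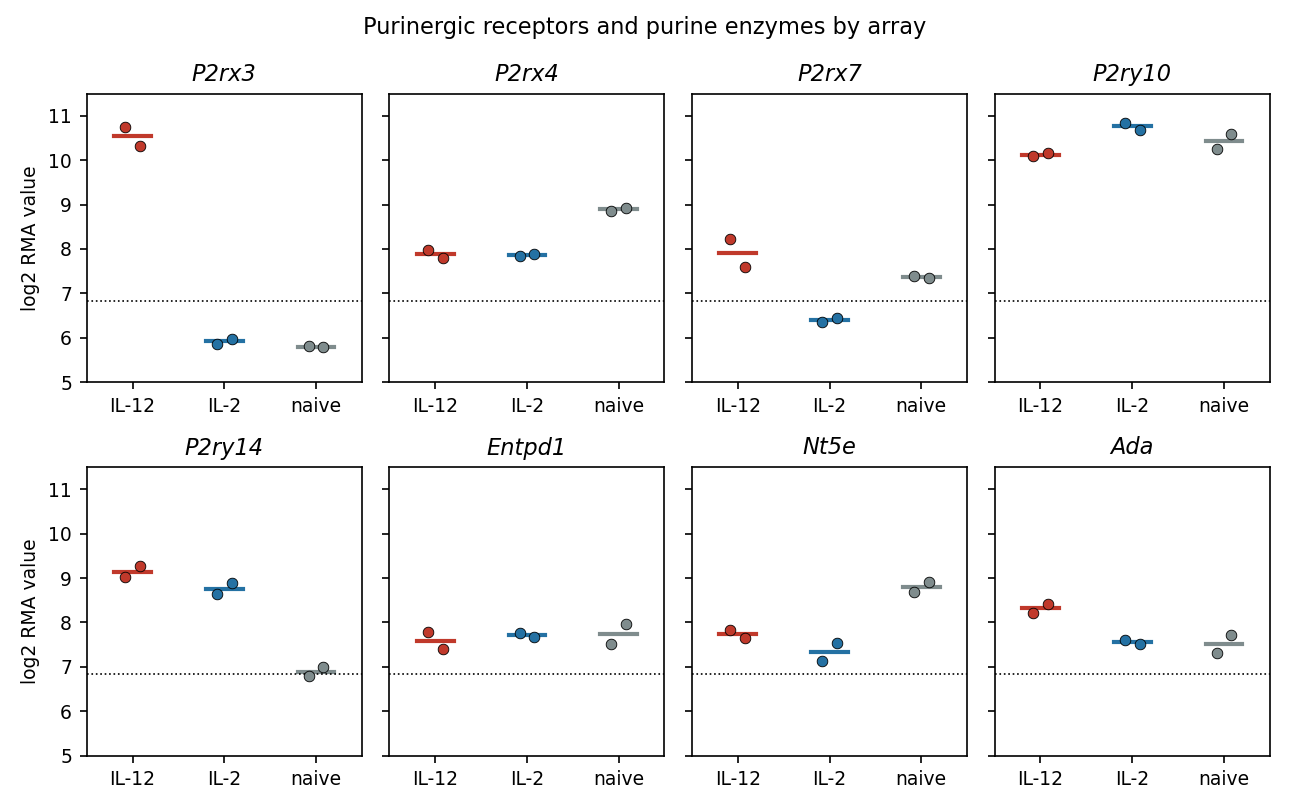
Log2 RMA values (vertical axis) of the 8 measured genes on single arrays (points) with group means (bars) in IL-12, IL-2 and naive cells, 2 arrays per group. The dotted line is the filter level of 6.83. P2rx3 was high on the IL-12 arrays alone, P2ry14 was low on the naive arrays, P2rx4 and Nt5e were high there, and the groups overlapped for Entpd1.

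The enzymes of the path from ATP to inosine differed in pattern. Entpd1 did not pass in any comparison, Nt5e was lower in both primed groups than in naive cells and Ada was higher in IL-12 cells than in the other groups. Entpd1 (probe set 10463070) read 7.78 and 7.41 in IL-12 cells, 7.76 and 7.67 in IL-2 cells and 7.52 and 7.97 in naive cells. All 3 groups overlapped. Its differences were -0.12 ± 0.17 for IL-12 minus IL-2, -0.15 ± 0.17 for IL-12 minus naive and -0.03 ± 0.17 for IL-2 minus naive (limma adjusted p = 0.652, 0.477 and 0.911). The 95% intervals together ran from -0.54 to 0.36, and changes inside each interval were not excluded here.

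Nt5e (probe set 10587639) read 7.83 and 7.66 in IL-12 cells, 7.13 and 7.53 in IL-2 cells and 8.68 and 8.91 in naive cells. The naive arrays were above all primed arrays. Nt5e was 2.07-fold lower in IL-12 than in naive cells (limma adjusted p = 0.000422). In IL-2 against naive cells it was 2.76-fold lower (limma adjusted p = 9.7e-05). The IL-12 arrays lay above the IL-2 arrays, but the difference of 0.41 ± 0.15 did not pass (limma adjusted p = 0.0906), except with array weights (0.0413). As for P2rx4, the naive cells were also highest in the B cell and myeloid marker sums.

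Ada (probe set 10489391) read 8.22 and 8.41 in IL-12 cells, 7.62 and 7.51 in IL-2 cells and 7.31 and 7.72 in naive cells. The IL-12 arrays were above the other 4, and IL-2 and naive arrays overlapped. Ada was 1.68-fold higher in IL-12 than in IL-2 cells (log2 difference 0.75 ± 0.15, limma adjusted p = 0.00877) and 1.74-fold higher than in naive cells (0.80 ± 0.15, limma adjusted p = 0.0016). The call against IL-2 cells was lost without IL-12 replicate 2 (difference 0.655) or IL-2 replicate 2 (0.698), fits that leave 1 array in a group. IL-2 minus naive was 0.05 ± 0.15 (95% interval -0.29 to 0.39, limma adjusted p = 0.812).

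Ada was the listed gene whose window held a GAS element, the sequence that STAT factors read, and it is shown for that match. The window is the minus strand of chr2:163750240-163750489 in GRCm38.p6, with the match TTCCGGGAA, from 90 to 82 bases before the start, in capitals.
Ada: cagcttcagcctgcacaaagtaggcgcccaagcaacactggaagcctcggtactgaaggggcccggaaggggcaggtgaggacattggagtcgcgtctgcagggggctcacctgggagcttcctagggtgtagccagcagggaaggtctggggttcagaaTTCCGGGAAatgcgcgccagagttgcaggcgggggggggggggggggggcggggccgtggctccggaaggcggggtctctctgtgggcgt
A match describes the letters and not a bound site, and the 7.02% of all windows with a GAS match is its background.

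Counted with P2rx3, which lay past the threshold by its choice and was not tested, 4 of the 8 measured genes were past it when IL-12 cells were set against IL-2 cells. Of these 3 were higher (P2rx3, P2rx7 and Ada) and 1 lower (P2ry10), where 20.8% of all tested genes passed, 9.82% higher and 11.0% lower. Between IL-12 and naive cells 6 were past it, again with P2rx3, 4 higher (P2rx3, P2rx7, P2ry14 and Ada) and 2 lower (P2rx4 and Nt5e), where 57.9% of all genes passed, 31.2% higher and 26.7% lower. Nothing is read from these counts. Between IL-2 and naive cells 4 of 8 passed, P2ry14 higher and P2rx4, P2rx7 and Nt5e lower, close to the 45.7% of all genes, of which 25.8% were higher and 19.9% lower. Median centring of the arrays shifted the split of all genes to 4051 higher and 2279 lower for IL-12 against naive cells, beside 3482 and 2972. For IL-2 against naive cells it gave 3282 higher and 1562 lower, beside 2873 and 2222. Both comparisons with naive cells share the naive arrays. The median difference of the 8 genes was 0.39 for IL-12 minus IL-2, 0.20 for IL-12 minus naive and 0.01 for IL-2 minus naive. That of all tested genes was 0.02, 0.04 and 0.01. The medians for IL-12 cells include P2rx3, chosen for its IL-12 level, so nothing is read from them. Of the other measured genes, P2rx4, P2ry10, Entpd1 and Nt5e had negative and P2rx7, P2ry14 and Ada positive differences for IL-12 minus naive.

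**Figure D3:**
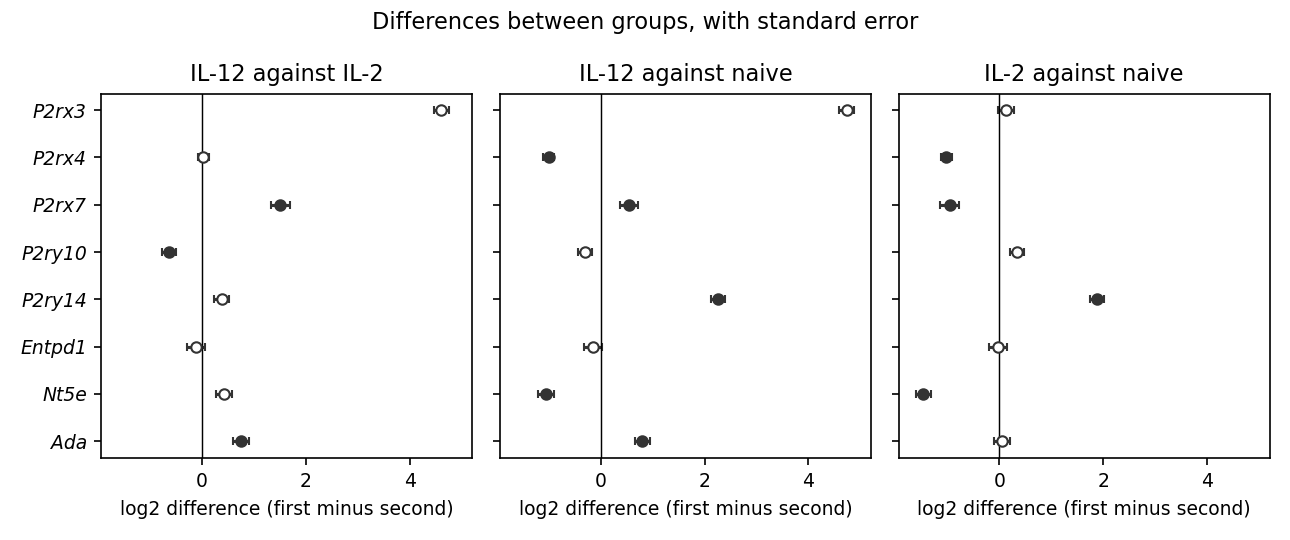
Log2 differences (horizontal axis, first-named minus second-named group) of the 8 measured genes in the 3 comparisons, with bars for limma's standard error (n = 2 arrays per group). Filled points passed limma's test, open points did not, and P2rx3 is drawn open because it was chosen for its IL-12 level. P2rx7 lay at 1.51, 0.54 and -0.96, on opposite sides of naive cells in IL-12 and IL-2 cells.

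Beyond the listed genes, 46 other genes of purine signalling were examined, of which 38 had a probe set and 25 entered the test. In IL-12 against IL-2 cells 3 passed as higher and 6 as lower (median difference -0.06). The counts were 7 and 10 for IL-12 against naive cells (median 0.07) and 7 and 8 for IL-2 against naive cells (median -0.13). They include Bst1, P2ry13 and Ampd3, which entered the test through 1 group alone, so nothing is read from the counts. These shares stand beside the 20.8%, 57.9% and 45.7% of all genes. The 4 other P2X genes and 4 of the 7 other P2Y genes were below the filter, and Adora1, Adora2b and Adora3 were not analysed here.

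Among other surface enzymes, Enpp4 was higher and Dpp4 lower in IL-12 than in IL-2 cells. Enpp4 encodes a member of the ectonucleotide pyrophosphatase family. It read 9.45 and 9.38 in IL-12 cells, 7.23 and 7.02 in IL-2 cells and 9.02 and 9.38 in naive cells. The IL-2 arrays alone were low. It was 4.89-fold higher in IL-12 than in IL-2 cells (limma adjusted p = 2.57e-05) and 4.21-fold lower in IL-2 than in naive cells (limma adjusted p = 5.99e-06). IL-12 minus naive was 0.22 ± 0.14 (limma adjusted p = 0.215), and the B cell and myeloid marker sums were likewise lowest in IL-2 cells.

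Bst1 encodes CD157, a relative of CD38, and is the coding gene next to Cd38 on chromosome 5. It read 8.22 and 7.34 in IL-12 cells, 5.75 and 5.73 in IL-2 cells and 5.74 and 5.94 in naive cells. Both IL-12 arrays were above the other 4, but lay well apart from each other, and they alone brought the gene into the test. Bst1 was 4.11-fold higher in IL-12 than in IL-2 cells (log2 difference 2.04) and 3.83-fold higher than in naive cells, given as a description because of how it entered the test. Of 7 tested myeloid markers, limma called none but Itgam and Mpeg1 between IL-12 and IL-2 cells. Itgam averaged 7.52 in IL-12, 6.57 in IL-2 and 6.31 in naive cells, and Mpeg1 6.59, 5.62 and 9.07. Itgam exceeded the filter level on the IL-12 arrays alone and Mpeg1 on the naive arrays alone, so these values are a description. Dpp4 encodes CD26, which in humans binds adenosine deaminase at the cell surface. It was 1.61-fold lower in IL-12 than in IL-2 cells (limma adjusted p = 0.00288), at 10.29 and 10.20 in IL-12, 10.92 and 10.94 in IL-2 and 11.45 and 11.29 in naive cells, with no overlap between groups.

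Of 7 tested genes for release and uptake, 4 were lower in IL-12 than in IL-2 cells by limma, where 11.0% of all tested genes were lower. The list was chosen with earlier results of these data known and holds the related Slc28a2 and Slc28a2b. Nothing is read from this count. Slc17a9 encodes the transporter that loads ATP into vesicles. It read 7.82 and 7.98 in IL-12 cells, 9.07 and 9.29 in IL-2 cells and 9.69 and 9.64 in naive cells. It was 2.43-fold lower in IL-12 than in IL-2 cells (limma adjusted p = 0.000192) and 3.40-fold lower than in naive cells (limma adjusted p = 3.87e-06). Slc28a2 encodes a sodium-coupled nucleoside transporter, and it was 2.54-fold lower in IL-12 than in IL-2 cells (limma adjusted p = 0.000171), at 9.14 and 9.31 in IL-12 cells and 10.52 and 10.61 in IL-2 cells. The related gene Slc28a2b read 8.01 and 7.55 in IL-12 cells, 11.17 and 11.15 in IL-2 cells and 11.70 and 11.26 in naive cells. Slc28a2b was 10.4-fold lower in IL-12 than in IL-2 cells (limma adjusted p = 1.44e-05), and cross-hybridisation between these related genes was not tested. The equilibrative nucleoside transporter gene Slc29a1 exceeded its naive level 2.19-fold in IL-12 and 2.14-fold in IL-2 cells (limma adjusted p = 6.68e-05 and 0.000133).

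Inside the cell, Pnp and Adk were higher in both primed groups than in naive cells. Pnp encodes purine nucleoside phosphorylase, the step after adenosine deaminase. It read 10.19 and 10.20 in IL-12 cells, 9.71 and 9.62 in IL-2 cells and 8.31 and 8.70 in naive cells, with no overlap between groups. It exceeded its naive level 3.24-fold in IL-12 and 2.24-fold in IL-2 cells (limma adjusted p = 1.17e-05 and 0.000187), and was 1.44-fold higher in IL-12 than in IL-2 cells (limma adjusted p = 0.0258). Adk, whose kinase returns adenosine to AMP, exceeded its naive level 1.82-fold in IL-12 and 1.95-fold in IL-2 cells (limma adjusted p = 0.0018 and 0.00153). Ampd3, an AMP deaminase gene, read 5.81 and 5.86 in IL-12 cells, 5.79 and 5.80 in IL-2 cells and 8.03 and 8.01 in naive cells. Only the naive arrays exceeded the filter level, so the 4.54-fold lower level in IL-12 and the 4.68-fold lower level in IL-2 than in naive cells are a description. The B cell and myeloid sums were highest in naive cells too.

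**Figure D4:**
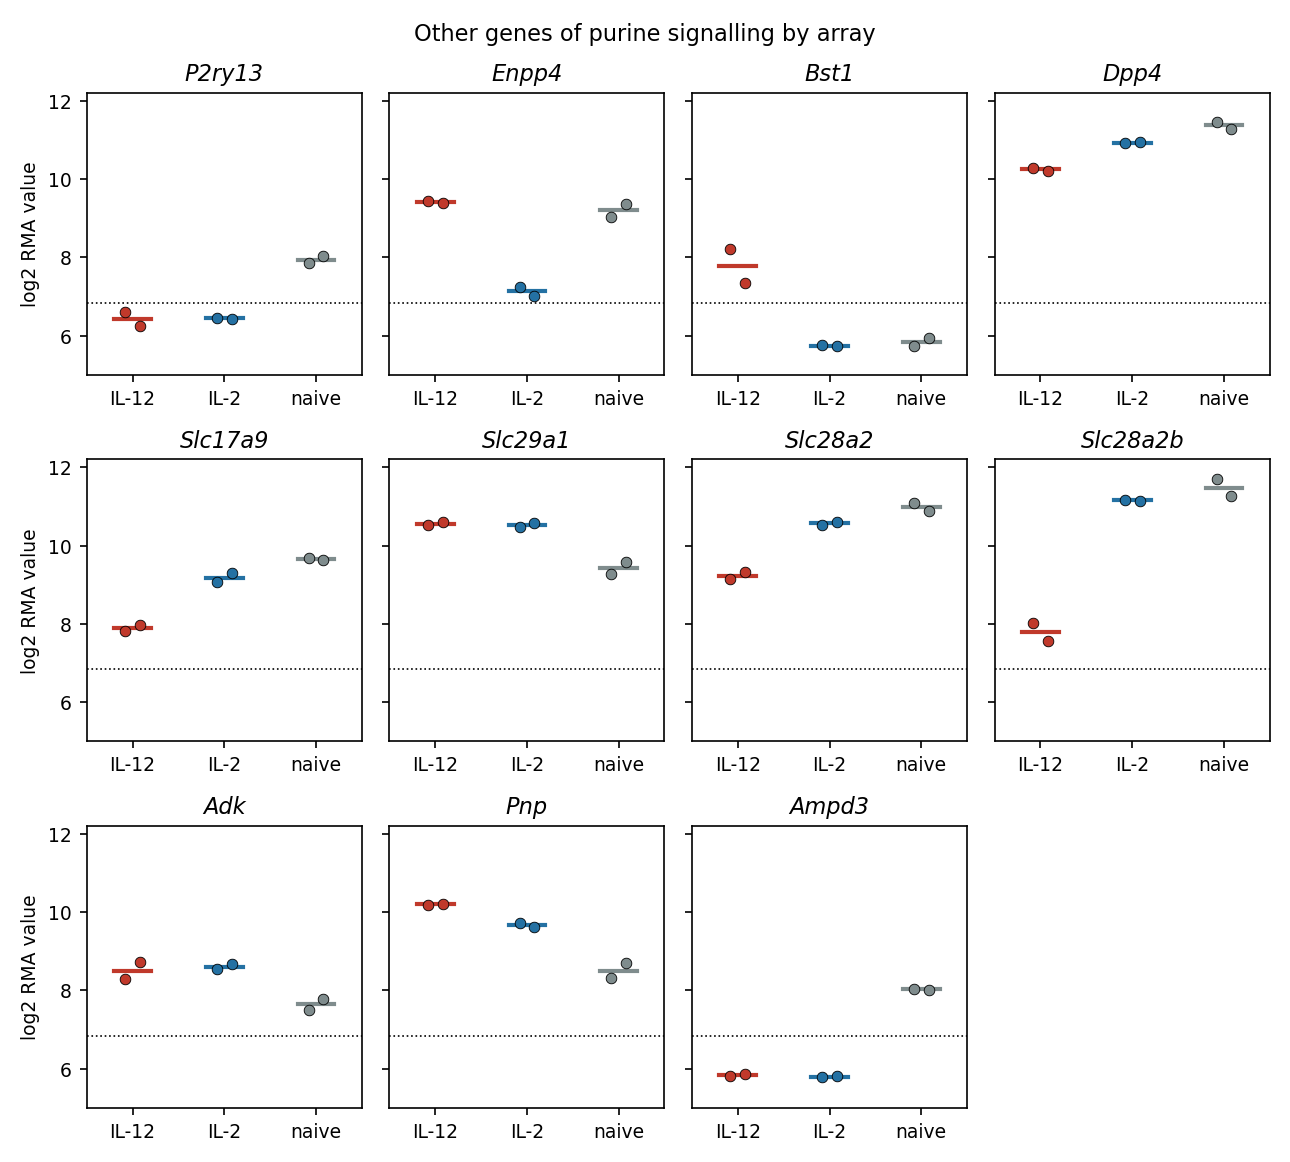
Log2 RMA values (vertical axis) of 11 other genes of purine signalling on single arrays (points) with group means (bars) in IL-12, IL-2 and naive cells, 2 arrays per group. The dotted line is the filter level of 6.83. Enpp4 was low on the IL-2 arrays alone, Bst1 was high and Slc28a2b low on the IL-12 arrays alone, and Ampd3 was high on the naive arrays alone.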

How the data were processed

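Biotin-labelled RNA of 6 samples was measured on Affymetrix arrays, per the labels' protocols. Values for 35556 probe sets were deposited by the authors on the log2 scale, and the submitters' processing notes name RMA as the method. No RMA version or settings and no build are stated in those sources. RMA compresses low values, so folds of genes near the floor may be understated. Array medians differed between groups, and centring them added 0.117 to IL-12 minus naive and 0.099 to IL-2 minus naive.

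Of the probe sets, 21789 carried 1 gene symbol in the platform annotation, 1621 several and 12146 none. Each of 19938 genes was its probe set with the highest mean, and 11147 passed the filter (at least 2 of 6 arrays above the 50th percentile, 6.83). Limma 3.58.1 in R 4.3.3 was fitted to all 6 arrays with 1 mean per group and no block, on 3 residual and 5.62 prior degrees of freedom. Tests were two-sided, with Benjamini-Hochberg adjustment over all tested genes. Intervals at 95% are for single genes.

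The genes and lists were chosen with earlier results of these data known. Named were the 10 listed genes and up to 6 other purine genes per comparison that passed without overlap of the groups, by size. The 5 genes nearest P2rx3, with predicted genes and clone names left out, were named too. P2ry10b and P2ry12 were named as neighbours, after their values were seen. The markers Cd8a, Klrb1c, Cd4, Foxp3, Zbtb7b, Ikzf2, Itgam and Mpeg1 were named as checks, also after their values were seen. Alternatives were the filter, the probe set of a gene, normalization, the variance model, array weights, the groups fitted, a replicate block, a 1.5-fold test and leaving out arrays. Those for the other purine genes were added after seeing the data.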

Additional observations from a re-analysis of the deposited data

Results flagged for a closer look

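P2rx7 moved in opposite directions from naive cells under IL-12 and IL-2. Its log2 difference was 0.54 for IL-12 minus naive and -0.96 for IL-2 minus naive, with both IL-12 arrays above and both IL-2 arrays below the naive arrays. The difference between these effects is IL-12 minus IL-2, 1.51, and it passed limma's test (adjusted p = 0.000735). A fall in IL-2 cells alone could also make it pass, so it does not test the rise over naive cells. Both effects share the naive arrays. The rise over naive cells was not called without IL-12 replicate 1 (0.23), naive replicate 1 (0.56) or naive replicate 2 (0.52). With all arrays kept, it was not called with array weights (limma adjusted p = 0.0691) or in the 1.5-fold test.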

How the results depend on the processing

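Across 17 alternatives, of which 6 each left out 1 array, the calls of P2rx4, P2ry14 and Nt5e against naive cells and of P2rx7 in IL-12 against IL-2 cells held wherever the gene was tested. With a filter at the 75th percentile fewer genes were tested, and P2rx7, Entpd1, Nt5e and Ada were not among them. It called 2 listed genes in IL-12 against IL-2, 3 in IL-12 against naive and 2 in IL-2 against naive cells. These counts stand beside 4, 6 and 4. Tested against a 1.5-fold change, 2 listed genes were called in IL-12 against IL-2 cells, with 256, 2070 and 1152 of all genes and 5, 9 and 5 of the other purine genes in the 3 comparisons, beside 2321, 6454 and 5095 and 9, 17 and 15. Counts of listed genes include P2rx3. Array weights gave 3839 genes, and 6 listed genes with P2ry14 (limma adjusted p = 0.0334) and Nt5e (0.0413) added, and a fit on the compared groups alone 3533 for IL-12 against IL-2. The rise of P2rx7 in IL-12 against naive cells was lost with array weights (0.0691), and that and its fall in IL-2 cells in the 1.5-fold test. Averaging the probe sets of P2rx3 gave 2.57 against IL-2 and 2.66 against naive cells. Leaving out 1 array gave 737 to 3533 genes and 2 to 4 listed genes for IL-12 against IL-2, 5081 to 6844 and 5 to 6 for IL-12 against naive, and 3341 to 5786 and 4 to 5 for IL-2 against naive cells. The other purine genes called in the last of these were 8 to 16, and were 8 without IL-2 replicate 1 or 2. P2rx3 then differed by 4.39 to 4.83 from IL-2 and by 4.52 to 4.96 from naive cells. The causes were not tested.

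Some differences that were not called changed sign. Leaving out an array, P2rx4 ran from -0.073 to 0.121 and Entpd1 from -0.308 to 0.061 for IL-12 minus IL-2, Entpd1 from -0.375 to 0.072 for IL-12 minus naive, and Entpd1 from -0.251 to 0.196 and Ada from -0.156 to 0.254 for IL-2 minus naive. Without IL-12 replicate 1 P2rx4 was -0.073. Entpd1 was 0.061 and 0.033 without IL-12 replicate 2, 0.072 and 0.196 without naive replicate 2, and 0.015 without IL-2 replicate 2. Ada was -0.004 without IL-2 replicate 1 and -0.156 without naive replicate 1. Entpd1 in IL-2 minus naive cells was 0.014 with quantile normalization and 0.071 with median centring. Centring adds 0.117 to IL-12 minus naive and 0.099 to IL-2 minus naive for every gene.

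Replicate numbers were shared by the groups, but the labels do not say that they pair samples. Deviations of same-numbered arrays correlated at 0.153 between IL-12 and IL-2, -0.022 between IL-12 and naive and 0.015 between IL-2 and naive cells, across genes. With the replicate block, 2414, 6471 and 5128 genes and 5, 6 and 4 listed genes were called, P2ry14 being the addition in IL-12 against IL-2 cells.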
